A study of Sus scrofa with 180 samples.

Results

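Heat shock proteins and chaperones were examined in 2 muscles of the pig, the Longissimus (LM, the loin) and the Semimembranosus (SM, a ham muscle). The members are all genes in the study's 2 lists of named probes whose symbol begins with HSP, DNAJ, FKBP, BAG or CCT and a digit, or PPI and a letter from A to H. These were 37 genes measured by 41 probes, of 3481 genes measured by 3967 named probes. Of the 37 genes, 5 encode small heat shock proteins, 6 encode HSP70 proteins or their exchange factors, 14 J-proteins, 3 HSP90 proteins, 2 chaperonin subunits and 6 immunophilins. The remaining gene, HSPG2, encodes perlecan, a proteoglycan of the basement membrane that shares only the letters of its symbol with the others. The lists held genes that the study had found to differ between LM and SM on these arrays, so the difference between the muscles chose the members and is given for them as a description without a test.

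Chaperones bind unfolded or misfolded proteins and help them fold, assemble or be degraded. J-proteins deliver clients to HSP70 and start its ATPase cycle, exchange factors such as the BAG proteins and HSPBP1 release the nucleotide, and HSP90 receives clients at a later stage together with co-chaperones such as FKBP4, FKBP5 and STIP1. Small heat shock proteins hold unfolding proteins without using ATP and are abundant in striated muscle, where they protect the myofibril. In the cytosol many of these genes are induced by the transcription factor HSF1 upon heat or other protein damage, whereas HSPA5 (BiP), HSP90B1 (GRP94) and DNAJB9 serve the endoplasmic reticulum and are induced when unfolded proteins accumulate there. HSPD1 (HSP60) folds proteins in the mitochondrial matrix. FKBP5 is a well known target of the glucocorticoid receptor.

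Each probe of the array is a 60-base oligonucleotide, and the first 30 bases of 10 of them are shown from 5′ to 3′ as the array files give them. They are the probes on which the co-variation rests, followed by those of FKBP4 and DNAJC21, whose difference between the muscles moved most with base composition. Capitals mark each C within the first 15 bases.
HSPB1: attaaCtgggaagtCggaaaagcccggaac
HSPB8: tgggatgtgtgtgtCattgttttttgaatt
HSPA5: gggttagggCgtgtattcaccataaaaacg
HSPD1: gaCCCtaaatCttgaagatgttcagcctca
probe listed as HSPA4: CtgtaaCttCaggtgtgggagtgtaagggg
HSP90AA1, first probe: tCtttCtgagggagCtcatttccaactcgt
HSP90AA1, second probe: aCCtCaCCgtgCtgCattccctctgacgat
FKBP5: tCtCCCCaaaattCCctcgaatgcaactct
FKBP4: CCCCCtttataCgCacactcatcagaatgt
DNAJC21: CttCCtCCtCCtCCaactgttgttttaaca
The probe of DNAJC21 had 9 C in these bases, those of FKBP4, FKBP5 and the second probe of HSP90AA1 had 7, and the median of the 41 members was 3, as it was over all 10987 probes kept. The sequence of the probe listed as HSPA4 was described in the study's list only as heat shock protein 70, so which HSP70 gene it measures is not settled. The positions of the probes in the pig genome were not analysed here.

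The animals were an F2 intercross between a Pietrain type line and a synthetic line of Duroc, Large White and Hampshire origin. They were of both sexes, all carried the wild-type alleles at the HAL and RN loci, and none was treated. Both muscles of each of 90 pigs were sampled with a trocar 20 min after death, and each sample was hybridised to 1 single-colour array, giving 90 arrays of LM and 90 of SM. Levels are log2 of the processed signal minus the median of the array, so a level of 1 is a signal at 2 times the array's median. Levels of different probes are not comparable with each other. The arrays of LM lay on 21 slides and those of SM on 14 others, and no slide or scan day held both muscles, so the muscle cannot be told apart from the slide or the scan day. The median signal of an array ranged from 171 to 304 in LM and from 105 to 252 in SM, and 69.2% to 99.9% and 63.4% to 83.3% of the probes were well above background. Of the member values, 159 of 7380 (2.15%) were missing because the spot failed a quality criterion or was an outlier, and 11 probes were complete in both muscles. In a whole muscle sample, fewer cells of a type and less RNA per cell cannot be told apart.

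The labels number the pigs, but levels of probes with 2 separate states did not bear out that arrays of the 2 muscles with the same number came from the same animal. All 10987 probes were searched for levels that fall into 2 groups in both muscles, and the probes were chosen after their values were seen. At the first probe (BQ598889.1_523), 49 LM arrays were high, all at 4.83 or above, and 41 were low, all at 0.60 or below, while 50 SM arrays were high and 40 low. The state was shared by both arrays in 83 of the 90 numbered pairs and differed in 7, where 45.4 shared pairs would follow from unrelated labels. In LM this state nearly coincided with the slide, as the arrays of 20 of 21 slides were all high or all low, against 1 of 14 slides in SM. The paper describes the pigs as 2 half-sib families of 41 and 49 animals and fits the hybridization batch within the sire. The labels do not give the family, so whether the state goes with it was not tested. Many pigs share each state, so a shared state does not identify an animal. At the second probe (CF792920.1_1114), 49 LM arrays and 54 SM arrays were high. Its state was shared in 43 of 90 pairs and differed in 47, where 45.8 shared pairs would follow from unrelated labels. CXORF15 and TMEM27, which lie on the X chromosome in human, moved with this state and stood apart in level, with high minus low differences of -0.59 and -0.53 (log2) in LM and -0.57 and -0.76 in SM. In all, 41 pairs shared the state of both probes. Which muscle's labels are off was not settled, and no array was assigned to another pig. Comparisons within a muscle do not use the pairing.

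**Figure D1:**
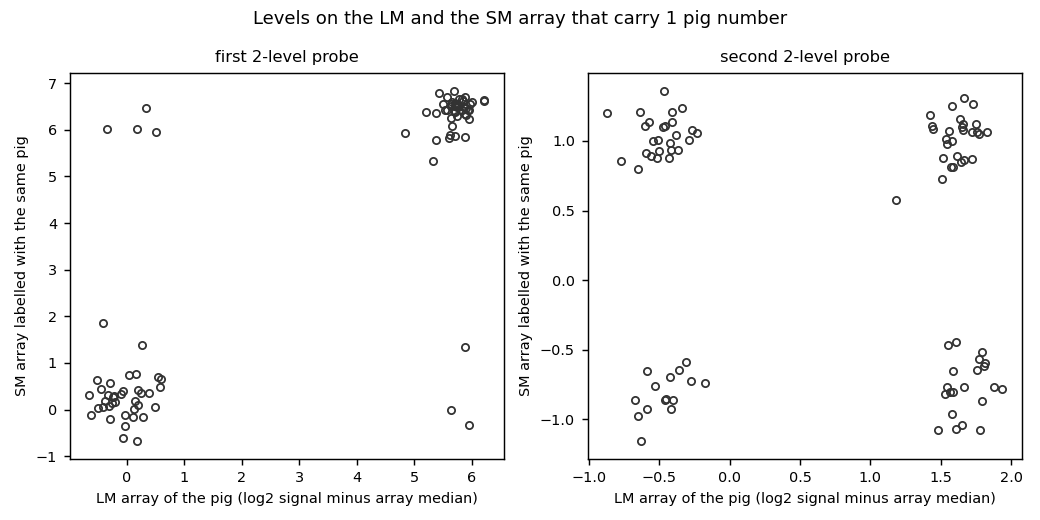
Levels (log2 signal minus array median) of the 2 probes with separate states, the LM array on the x axis and the SM array of the same pig number on the y axis, 1 circle per pig number. At the first probe (left) 83 of 90 circles lie where both arrays share a state, and at the second (right) 43 of 90, so all 4 corners are filled.

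Between the muscles, 18 probes of 17 genes had the higher mean in LM and 23 probes of 20 genes in SM. The classes were not split evenly. All 4 HSP90 probes, 6 of 7 probes of HSP70 and its exchange factors and 4 of 5 small heat shock protein probes were higher in SM, while 11 of 15 J-protein probes and both chaperonin probes were higher in LM, and the immunophilins were divided, with 3 probes higher in LM and 4 in SM. Some of these directions depended on the processing. With an index of C-rich probes, defined below, as a covariate, 3 of the 41 turned (CCT6A, DNAJB4 and HSPB3). With normexp background correction 3 turned (HSPA2, DNAJB4 and DNAJB5). All of these are counted here as higher in LM. Fold differences ran from 1.07 to 2.63, with 9 probes above 2-fold and 24 below 1.5-fold. The arrays of LM and SM overlapped in level for all 41 probes. The share of all probes that overlap in this way was not computed, so nothing is read from that count. In the fit over all probes, 40 of the 41 members were called (adjusted P value at or below 0.05), beside 83.5% of all 10987 probes, of which 35.7% were higher in LM and 47.7% in SM; as the lists were drawn from this same contrast, nothing is read from that count. The members closest to no difference were DNAJB5, at 0.09 (log2, LM minus SM), FKBP11 at 0.16, HSPD1 at 0.17 and HSPA2 at 0.17. Chaperone genes of the array that the lists at hand did not name were not analysed here.

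**Figure D2:**
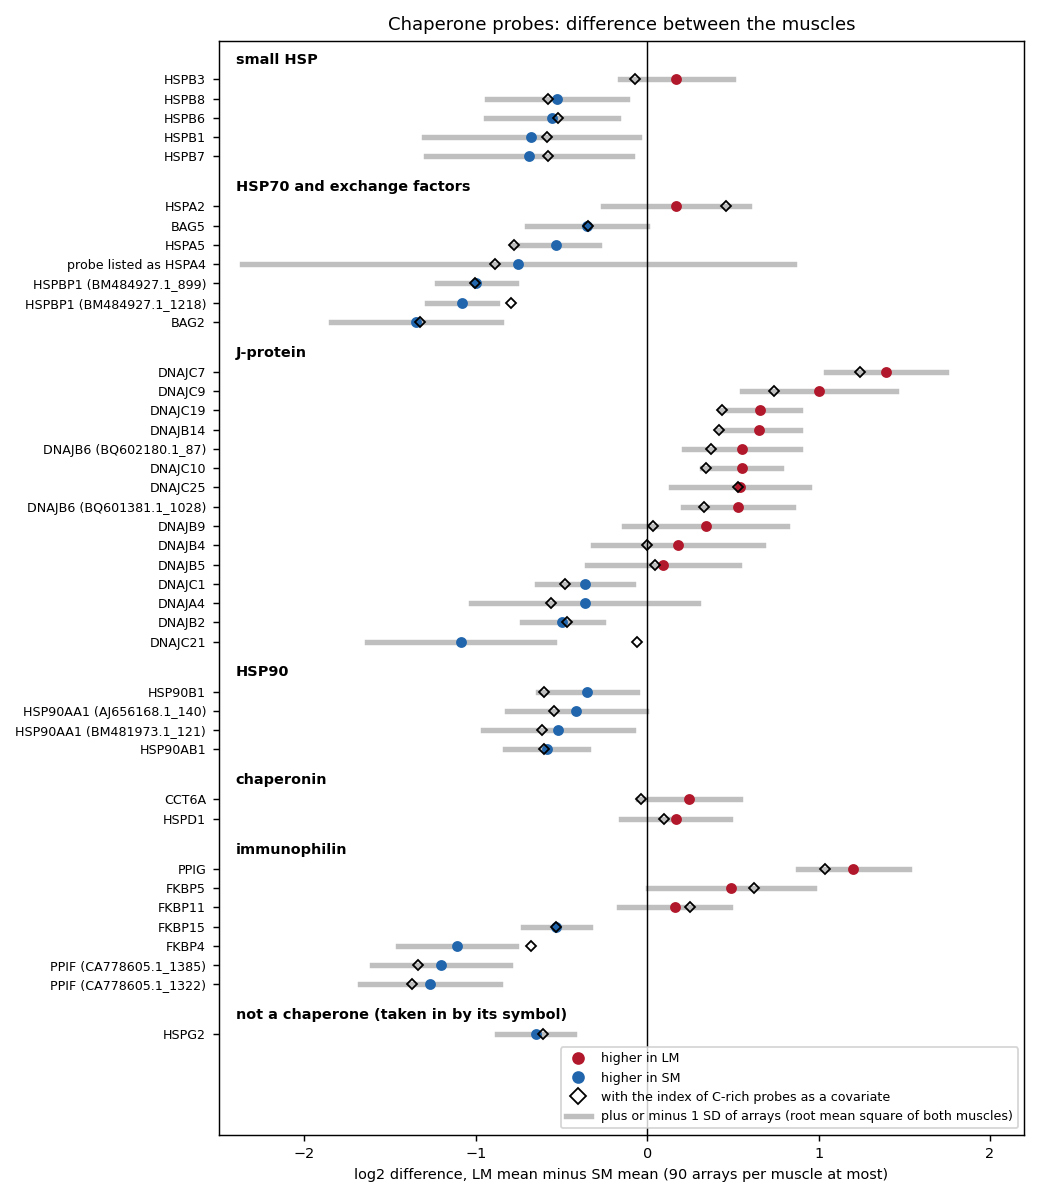
Log2 difference between the mean of LM and the mean of SM for each of the 41 probes, grouped by class, with grey bars of 1 SD of arrays to each side. Diamonds show the difference after adjustment for the C-rich index of each array. The HSP90 probes all lie left of 0 (higher in SM), most J-proteins lie right of 0, and DNAJC21 moves from -1.09 to -0.06.

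Among the small heat shock proteins, HSPB1 (HSP27), which binds unfolding proteins and actin, ranged from 4.34 to 7.33 in LM, with a median of 5.67 and a mean of 5.68 ± 0.72 (SD, n = 87), and from 5.20 to 7.77 in SM, with a median of 6.36 and a mean of 6.36 ± 0.51 (SD, n = 89). It was 1.6-fold higher in SM, and in 76.6% of all combinations of 1 LM and 1 SM array the SM array was higher. HSPB8, the partner of BAG3 in clearing damaged myofibrillar proteins, ranged from 6.94 to 9.04 in LM, with a median of 7.93 and a mean of 7.96 ± 0.46 (SD, n = 88), and from 7.59 to 9.23 in SM, with a median of 8.46 and a mean of 8.49 ± 0.35 (SD, n = 90), and was 1.44-fold higher in SM. HSPB7, the cardiovascular family member, had levels of 3.41 ± 0.64 in LM (SD, n = 90) and 4.11 ± 0.56 in SM (SD, n = 90), and HSPB6 (HSP20) of 0.40 ± 0.34 in LM (SD, n = 90) and 0.96 ± 0.42 in SM (SD, n = 89). HSPB3, a muscle-specific member, was the exception, with levels of -0.52 ± 0.31 in LM (SD, n = 89) and -0.69 ± 0.35 in SM (SD, n = 90), 1.13-fold higher in LM. The ranges of all 5 genes overlapped widely between the muscles. After adjustment for a C-rich index, which subtracts the mean level on an array of probes poor in C (at most 2 among the first 15 bases) from that of C-rich probes (at least 8), HSPB3 turned to -0.07 and the other 4 stayed between -0.58 and -0.52.

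Of the HSP70 group, BAG2, an exchange factor that also inhibits the ubiquitin ligase CHIP, differed most. Its level ranged from 1.66 to 4.04 in LM, with a median of 2.82 and a mean of 2.79 ± 0.49 (SD, n = 90), and from 2.15 to 5.14 in SM, with a median of 4.19 and a mean of 4.14 ± 0.50 (SD, n = 90). SM was 2.55-fold higher, and 97% of array combinations had the higher value in SM. HSPBP1, another exchange factor, was measured by 2 probes, with differences of -1.08 and -0.996 (log2, LM minus SM), and SM was higher in 99.9% of combinations by the second and in a larger share by the first. HSPA5, the HSP70 of the endoplasmic reticulum, ranged from 3.76 to 4.87 in LM, with a median of 4.31 and a mean of 4.31 ± 0.24 (SD, n = 90), and from 4.33 to 5.53 in SM, with a median of 4.82 and a mean of 4.84 ± 0.27 (SD, n = 89), 1.45-fold higher in SM. BAG5 was 1.28-fold higher in SM, at -0.07 ± 0.35 in LM (SD, n = 90) and 0.28 ± 0.35 in SM (SD, n = 90). HSPA2, an HSP70 best known from the testis, was near the background and 1.12-fold higher in LM, at -2.78 ± 0.50 in LM (SD, n = 87) and -2.94 ± 0.34 in SM (SD, n = 86). Its difference of 0.17 was 0.46 with the C-rich covariate and turned to -0.06 with normexp background correction.

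The probe listed as HSPA4 stood apart by its spread within each muscle. It ranged from -3.90 to 3.66 in LM, with a median of -1.61 and a mean of -1.21 ± 1.59 (SD, n = 88), and from -3.30 to 4.19 in SM, with a median of -0.63 and a mean of -0.45 ± 1.63 (SD, n = 89). Its signal spanned 188-fold over the arrays of LM and 179-fold over those of SM, and its SD exceeded that of 99.9% of all probes in both muscles. The mean was 1.69-fold higher in SM, a difference smaller than the SD of either muscle.

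All 3 HSP90 genes had higher means in SM. HSP90AA1, the inducible cytosolic HSP90, had 2 probes. The first ranged from 1.45 to 3.59 in LM, with a median of 2.52 and a mean of 2.52 ± 0.48 (SD, n = 90), and from 2.06 to 3.84 in SM, with a median of 3.09 and a mean of 3.04 ± 0.40 (SD, n = 88), and the second had levels of 4.90 ± 0.44 in LM (SD, n = 89) and 5.32 ± 0.36 in SM (SD, n = 88). SM was 1.44-fold and 1.33-fold higher. HSP90AB1, the constitutive cytosolic HSP90, ranged from 6.80 to 8.01 in LM, with a median of 7.41 and a mean of 7.43 ± 0.25 (SD, n = 89), and from 7.53 to 8.69 in SM, with a median of 8.01 and a mean of 8.02 ± 0.23 (SD, n = 90), and was 1.5-fold higher in SM with less spread than HSP90AA1. HSP90B1, the HSP90 of the endoplasmic reticulum, had levels of 3.86 ± 0.27 in LM (SD, n = 90) and 4.21 ± 0.31 in SM (SD, n = 89), 1.27-fold higher in SM, and its difference of -0.35 was -0.60 with the C-rich covariate. The chaperonins differed little. HSPD1 ranged from 1.87 to 3.15 in LM, with a median of 2.46 and a mean of 2.48 ± 0.27 (SD, n = 90), and from 1.55 to 3.24 in SM, with a median of 2.35 and a mean of 2.32 ± 0.36 (SD, n = 89), 1.12-fold higher in LM, and CCT6A, a subunit of the cytosolic chaperonin that folds actin and tubulin, had levels of 3.95 ± 0.27 in LM (SD, n = 90) and 3.71 ± 0.32 in SM (SD, n = 89), 1.19-fold higher in LM. With the C-rich index as a covariate, CCT6A turned to -0.04 and HSPD1 went from 0.17 to 0.10.

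The largest difference of all was that of a J-protein. DNAJC7 (TPR2), which binds both HSP70 and HSP90, ranged from 3.17 to 4.87 in LM, with a median of 4.39 and a mean of 4.37 ± 0.27 (SD, n = 89), and from 1.34 to 3.65 in SM, with a median of 3.04 and a mean of 2.97 ± 0.42 (SD, n = 90). LM was 2.63-fold higher, the largest fold of the 41 probes, and 99.7% of array combinations were higher in LM. DNAJC9, a J-protein that also chaperones histones, was 2.00-fold higher in LM, at -1.70 ± 0.43 in LM (SD, n = 90) and -2.70 ± 0.47 in SM (SD, n = 69). Its spot was dim, not well above background, on 21 SM arrays, so that the dimmest values are missing from the mean of SM. DNAJC19, of the mitochondrial import motor, DNAJB14, DNAJC10, a reductase of the endoplasmic reticulum, DNAJC25 and both probes of DNAJB6 were higher in LM by 0.53 to 0.66 (log2). DNAJB6, a suppressor of protein aggregation that is mutated in a limb-girdle muscular dystrophy, had levels of 0.02 ± 0.41 in LM (SD, n = 89) and -0.54 ± 0.25 in SM (SD, n = 90) by the first probe and of 0.67 ± 0.38 in LM (SD, n = 89) and 0.14 ± 0.23 in SM (SD, n = 90) by the second. DNAJB9 differed by 0.34, DNAJB4 by 0.18 and DNAJB5 by 0.09; with the C-rich covariate these were 0.03, -6.22e-04 and 0.05. DNAJB4 and DNAJB5 were not well above background on 23 and 36 SM arrays. The covariate also lowered DNAJC19 to 0.44, DNAJB14 to 0.42, DNAJC10 to 0.34 and the second probe of DNAJB6 to 0.33.

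Of the 4 J-proteins higher in SM, DNAJC21, a nucleolar factor of ribosome assembly, had the largest difference, and its level ranged from 0.48 to 2.83 in LM, with a median of 1.23 and a mean of 1.31 ± 0.53 (SD, n = 84), and from 1.03 to 4.05 in SM, with a median of 2.39 and a mean of 2.40 ± 0.56 (SD, n = 90). This was the probe with 9 C in its first 15 bases. The C-rich index of an array ranged from -1.13 to 0.37 in LM and from -0.32 to 1.14 in SM, so it moved with the muscle. With this index as a covariate the difference of DNAJC21 was -0.06 instead of -1.09. DNAJB2, a J-protein that hands clients to the proteasome, differed by -0.50, DNAJA4 by -0.36 and DNAJC1 by -0.36, and with the covariate by -0.47, -0.56 and -0.48. DNAJA4, a cytosolic partner of HSP70, spread over 11.3-fold in LM and 8.71-fold in SM.

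Among the immunophilins, PPIF (cyclophilin D), the regulator of the mitochondrial permeability transition pore, was higher in SM by both of its probes. The first ranged from 0.94 to 2.80 in LM, with a median of 1.74 and a mean of 1.75 ± 0.35 (SD, n = 90), and from 1.82 to 4.44 in SM, with a median of 3.04 and a mean of 3.02 ± 0.46 (SD, n = 90), 2.41-fold higher in SM, and the second was 2.30-fold higher. FKBP4 (FKBP52), the HSP90 co-chaperone that favours nuclear transport of steroid receptors, had levels of 1.40 ± 0.27 in LM (SD, n = 85) and 2.51 ± 0.40 in SM (SD, n = 88), 2.16-fold higher in SM. Its difference of -1.11 was -0.68 with the C-rich covariate. FKBP5 (FKBP51), its counterpart that lowers the affinity of the glucocorticoid receptor for hormone, went the other way. FKBP5 ranged from -1.74 to 0.76 in LM, with a median of -0.55 and a mean of -0.57 ± 0.51 (SD, n = 83), and from -2.10 to 0.04 in SM, with a median of -1.05 and a mean of -1.06 ± 0.45 (SD, n = 87), 1.40-fold higher in LM. PPIG, a nuclear cyclophilin with a domain typical of splicing factors, was 2.30-fold higher in LM, at -1.46 ± 0.26 in LM (SD, n = 90) and -2.66 ± 0.38 in SM (SD, n = 87), and 99.7% of array combinations were higher in LM. FKBP15 was 1.44-fold higher in SM and FKBP11, of the endoplasmic reticulum, 1.12-fold higher in LM. HSPG2 had levels of 5.19 ± 0.20 in LM (SD, n = 88) and 5.84 ± 0.25 in SM (SD, n = 90), 1.57-fold higher in SM.

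**Figure D3:**
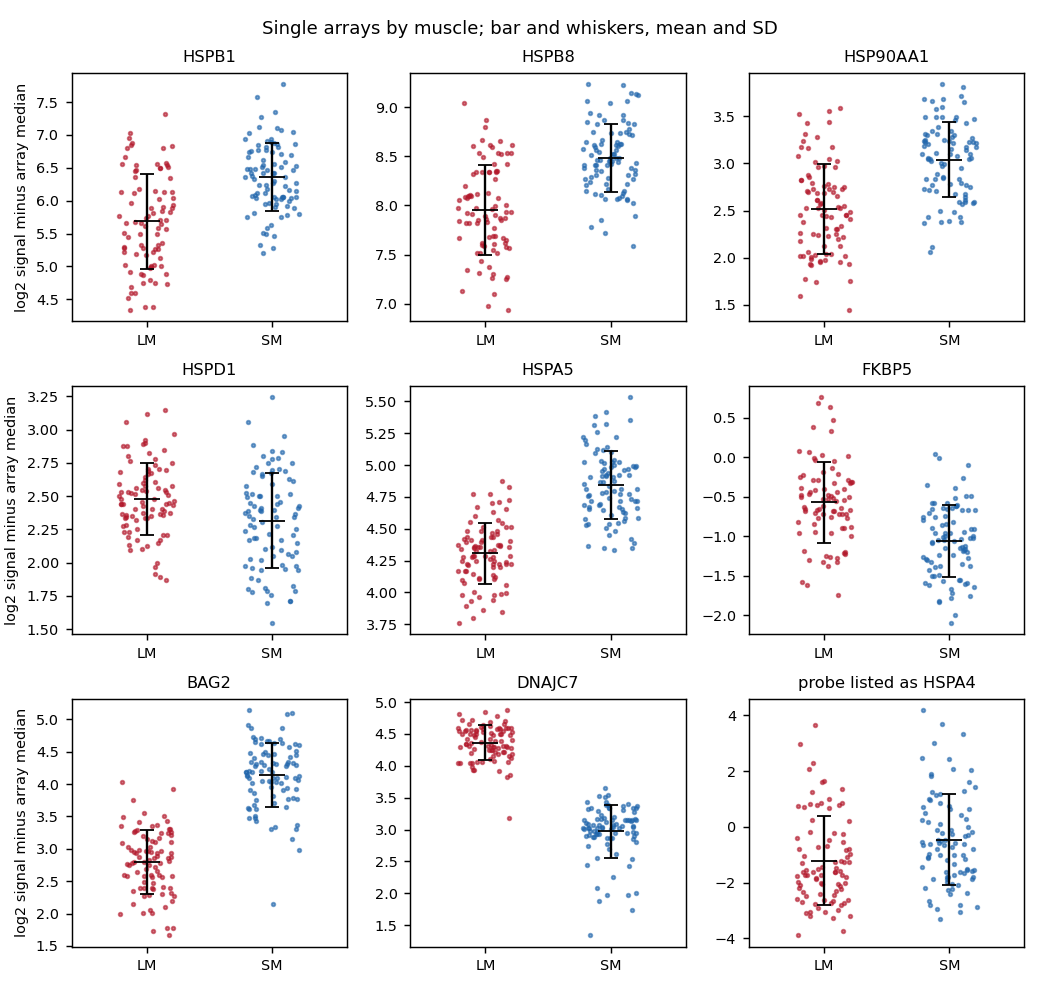
Levels of 9 probes on every array (log2 signal minus array median, 1 point per array), LM in red and SM in blue, with the mean and SD. DNAJC7 and BAG2 are nearly separated between the muscles, HSPD1 and the probe listed as HSPA4 overlap broadly, and the probe listed as HSPA4 spans from -3.90 to 4.19.

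Within a muscle the chaperones spread more over arrays than the typical probe. The median SD of the members was 0.35 in LM and 0.36 in SM, beside 0.28 and 0.29 over all probes. The SD of 6 members in LM and of 5 in SM lay above the 90th percentile of all probes. Besides the probe listed as HSPA4 and DNAJC21, these included DNAJA4, with an SD of 0.74 in LM and 0.58 in SM, HSPB1 with 0.72 and 0.51, and HSPB7 with 0.64 and 0.56. In contrast DNAJC10 in LM (0.17) and HSPBP1 and FKBP15 in SM (0.20 each) were among the steadiest. Genes with 2 probes showed how much of such spread was shared by separate spots. The probes of PPIF correlated with r of 0.99 in LM and 0.98 in SM, those of DNAJB6 with 0.98 and 0.88 and those of HSP90AA1 with 0.87 and 0.82, each with a permutation p of 1e-05, the smallest that 100000 permutations can give, and Spearman's rho from 0.81 to 0.98. The probes of HSPBP1 correlated less, with r of 0.40 in LM (permutation p = 0.00014, rho 0.36, permutation p = 0.00058) and 0.52 in SM (permutation p = 1e-05, rho 0.48, permutation p = 2e-05). Without the 2 outermost arrays these 8 coefficients ran from 0.37 to 0.98 and within slides from 0.47 to 0.99.

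The correlation of a chaperone between the LM and SM arrays with the same pig number was weak throughout. Of the 41 members, 0 were called at an adjusted P value of 0.05 over all probes, beside 1.39% of all 10987 probes, and 4 members had an unadjusted p below 0.05, beside 13.1% of all probes. The median r was 0.10 (range -0.20 to 0.26), beside 0.07 over all probes. BAG2 had the highest r, 0.26 (95% confidence interval 0.06 to 0.45, permutation p = 0.0125, rho 0.27, permutation p = 0.00933, adjusted P value 0.216). PPIF followed with 0.25 by its first probe (permutation p = 0.0182, rho 0.23, permutation p = 0.034) and HSPB3 with 0.25 (permutation p = 0.0201, rho 0.26, permutation p = 0.0145), with adjusted P values of 0.247 and 0.263. Without the 2 outermost pigs the 3 coefficients were 0.24, 0.26 and 0.30, and with slide means removed 0.01, 0.05 and 0.12. HSPA5 stood at -0.03 and the first probe of HSP90AA1 at -0.01. The probe listed as HSPA4, for all its spread, had an r of 0.00. For all 41 members the upper limit of the confidence interval of r lay below 0.5. Without the 7 pairs that differed at the first 2-state probe, 0 members and 2.0% of all probes were called. With the 41 pairs that shared both states, 0 members and 0.865% were called, and with slide means removed, 0 members and 0.0% were called. Since the pairing itself was not borne out, these values do not tell whether the level of a chaperone is shared by both muscles of an animal.

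Within each muscle, many chaperones rose and fell together from array to array. Among 816 pairs of member probes of different genes, with slide means removed, 53 (6.50%) had an r above 0.5 in LM and 35 (4.29%) in SM, beside 0.849% and 2.47% of all pairs of complete probes. The median r was 0.04 in LM and 0.08 in SM, beside 0.01 and 0.02 over all pairs. An r below -0.5 was found for 0 pairs in LM and 7 (0.858%) in SM, beside 0.199% and 0.631% of all pairs. The highest r in LM joined HSPB1 and HSPB8 (0.87, and 0.77 in SM). In SM the highest joined DNAJC10 and DNAJC19, at 0.77, and DNAJC10 also went with PPIG (0.77) and DNAJB14 (0.69), and DNAJC19 with PPIG (0.66). In LM the same pairs had r of 0.32, 0.16, 0.34 and 0.00, and the difference between the muscles was not tested. Of the 7 negative pairs in SM, 5 set a probe of HSPBP1 against DNAJC10, DNAJC19 or PPIG and 2 set FKBP15 against HSP90B1 or CCT6A. The small heat shock proteins HSPB6 and HSPB8 had r of 0.05 in LM and -0.25 in SM. These shares are a description, as all pairs come from the same arrays. The coefficients were not adjusted for the C-rich index, and its part in these groups was not tested.

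**Figure D4:**
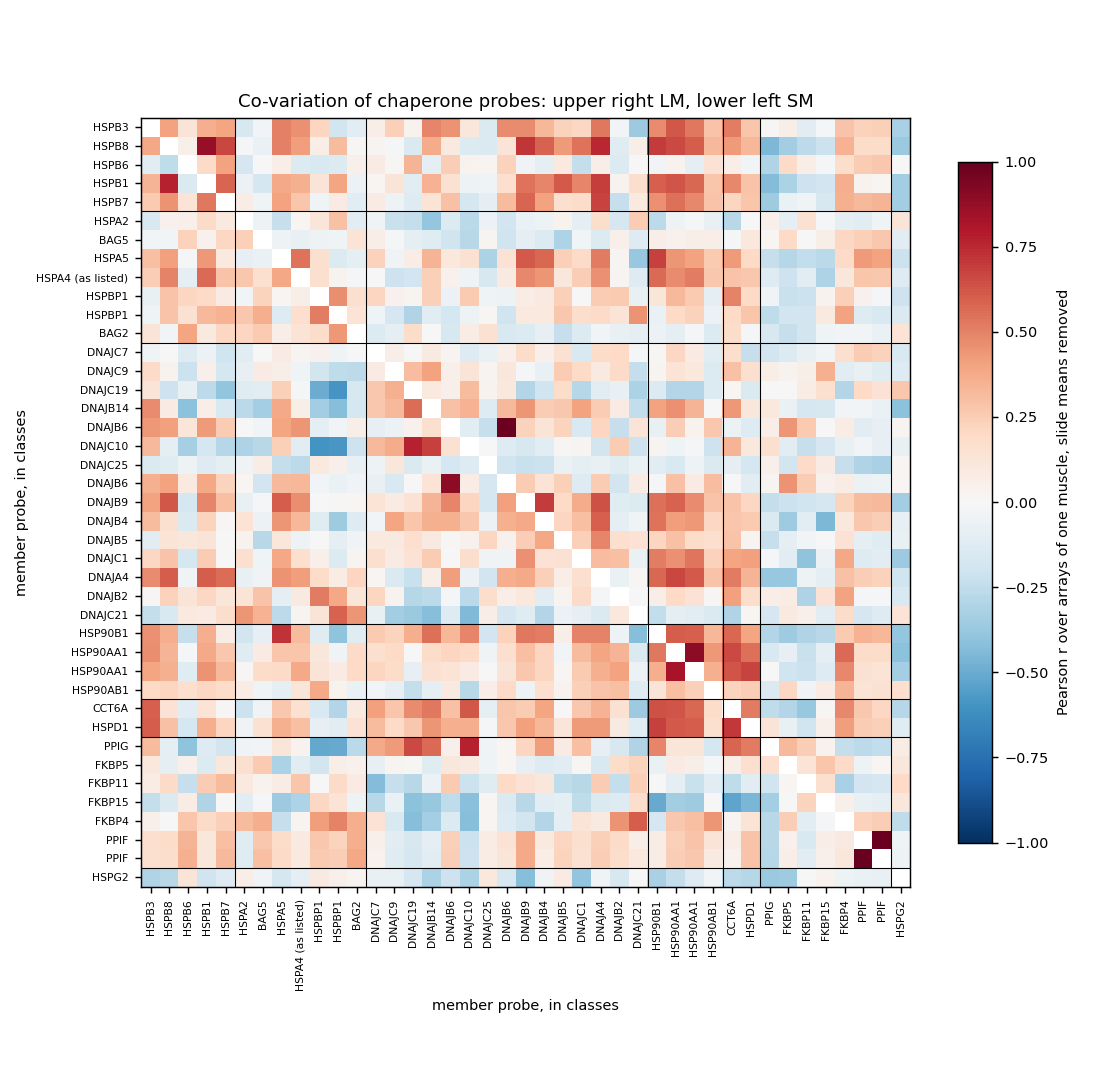
Pearson's r over the arrays of 1 muscle for every pair of member probes, slide means removed, with LM in the upper right triangle and SM in the lower left; lines divide the classes. Red cells in both triangles include HSPB1 with HSPB8 (0.87 in LM and 0.77 in SM) and HSPA5 with HSP90B1 (0.68 and 0.72), and in SM a further red group joins DNAJC10, DNAJC19, DNAJB14 and PPIG. No coefficient was adjusted for the C-rich index.

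To test which members moved together, every probe was fitted within each muscle on the level of a reference chaperone with the slide as a term, and the P values were adjusted over all probes. The slope is the log2 change of a probe for a rise of 1 in the log2 level of the reference. HSP90AA1 (mean of its 2 probes), HSPA5, HSPD1 and FKBP5 were the references for the cytosol, the endoplasmic reticulum, the mitochondrion and glucocorticoid induction, and HSPB1 and the probe listed as HSPA4 were added after their spread was seen.

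With HSP90AA1, 16 of 39 member probes were positively associated in LM (41.0%) and 9 in SM (23.1%), beside 11.5% and 2.49% of all probes. A single member was negatively associated in each muscle, HSPG2 in LM and FKBP15 in SM, beside 7.52% and 2.08%. Positive in both muscles were CCT6A, DNAJA4, HSP90B1, the probe listed as HSPA4, HSPB1, HSPB3, HSPB8 and HSPD1, 8 of the 16 genes positive in LM and of the 9 in SM. Both chaperonins followed HSP90AA1 in both muscles. HSPD1 had a slope of 0.35 (SE 0.0535, adjusted P value 1.29e-06) in LM and 0.60 (SE 0.0841, adjusted P value 5.77e-07) in SM, and CCT6A of 0.40 (SE 0.0554, adjusted P value 1.51e-07) and 0.60 (SE 0.0860, adjusted P value 1.04e-06). HSP90AA1 and HSPD1 correlated with Pearson's r of 0.62 (permutation p = 1e-05) and Spearman's rho of 0.65 (permutation p = 1e-05) over 90 arrays of LM, with r of 0.59 without the 2 outermost arrays and 0.63 within slides. In SM, r was 0.71 (permutation p = 1e-05), rho 0.68 (permutation p = 1e-05), and r 0.69 without the 2 outermost arrays and 0.64 within slides. Of the slides with 5 or more arrays, r was positive on 8 of 8 in LM and 11 of 13 in SM. In LM alone, FKBP4, HSP90AB1, HSPB7, DNAJB9, DNAJC1, DNAJB4, DNAJB14 and HSPA5 were also called, and in SM DNAJB2. The slopes of no member were called as different between the muscles (2 with an unadjusted p below 0.05 in the interaction test of limma, beside 7.96% of all probes, lowest adjusted P value 0.538), so the longer list in LM is not shown to be particular to LM.

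With HSPA5, 15 of 40 member probes were positively associated in LM (37.5%) and 12 in SM (30.0%), beside 15.9% and 5.93% of all probes. HSP90B1, which works beside HSPA5 in the endoplasmic reticulum, followed it most closely, with slopes of 0.71 (SE 0.0937, adjusted P value 6.76e-08) in LM and 0.80 (SE 0.0901, adjusted P value 2.09e-09) in SM. Their levels correlated with Pearson's r of 0.69 (permutation p = 1e-05) and Spearman's rho of 0.70 (permutation p = 1e-05) over 90 arrays of LM, with r of 0.70 without the 2 outermost arrays and 0.68 within slides. In SM, r was 0.68 (permutation p = 1e-05), rho 0.71 (permutation p = 1e-05), and r 0.65 without the 2 outermost arrays and 0.72 within slides. All 8 LM slides and all 13 SM slides with 5 or more arrays had a positive r. DNAJB9, the J-protein that returns HSPA5 to the stress sensor IRE1, had slopes of 1.34 (SE 0.205, adjusted P value 1.68e-06) in LM and 1.00 (SE 0.150, adjusted P value 2.86e-06) in SM, with r of 0.59 in both muscles (permutation p = 1e-05, rho 0.60 in LM and 0.59 in SM with permutation p = 1e-05). DNAJB14 was positive in both muscles and DNAJC1 in SM, while DNAJC10 and FKBP11, also of the endoplasmic reticulum, were called in neither. Cytosolic members followed as well, namely DNAJA4, DNAJB4, HSPB1, HSPB8 and the probe listed as HSPA4 in both muscles, 8 genes in all with HSP90B1, DNAJB9 and DNAJB14. Neither HSP90B1 nor DNAJB9 went with HSPA5 alone. With slide means removed, DNAJB9 and HSPB8 had r of 0.716 in LM and 0.624 in SM, beside 0.615 and 0.608 for DNAJB9 and HSPA5. HSP90B1 and HSPB8 had r of 0.702 in LM and 0.364 in SM, beside 0.680 and 0.722 for HSP90B1 and HSPA5. Negatively associated were DNAJC21 and DNAJC25 in LM and FKBP15 and FKBP5 in SM, beside 12.8% and 8.82% of all probes. No member's slope was called as different between the muscles (lowest adjusted P value 0.242 in the interaction test). An unadjusted p below 0.05 was found for 5 (12.5%), beside 13.8% of all probes, so calls in 1 muscle alone are not shown to be particular to it.

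The level of HSPA5 itself fell as the index of C-rich probes rose, with r of -0.45 in LM (permutation p = 1e-05, rho -0.41, permutation p = 6e-05) and -0.37 in SM (permutation p = 0.00028, rho -0.28, permutation p = 0.00901), -0.43 and -0.28 without the 2 outermost arrays and -0.44 and -0.38 within slides. With the index as a covariate, HSP90B1 and DNAJB9 remained called with HSPA5 in both muscles, but members called in SM went from 14 (beside 14.8% of all probes) to 7 (beside 4.61%), with DNAJB4, DNAJC1, DNAJB14, HSPD1, FKBP15, FKBP5 and the probe of DNAJB6 with the smaller slope lost. In LM CCT6A, DNAJC21 and DNAJB14 were lost, and the slope of DNAJC21 went from -0.70 to -0.01. The share of probes above background and the level of HSPA5 had r close to 0 (r -0.07 in LM, permutation p = 0.505, rho -0.09, permutation p = 0.401; -0.10 in SM, permutation p = 0.351, rho -0.11, permutation p = 0.282).

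With HSPD1, 6 of 40 member probes were positively associated in LM (15.0%) and 20 in SM (50.0%), beside 1.8% and 13.0% of all probes. CCT6A, HSP90AA1, HSP90B1 and DNAJC1 were positive in both muscles, and FKBP4 was positive in LM. CCT6A had slopes of 0.56 (SE 0.111, adjusted P value 0.00121) in LM and 0.69 (SE 0.0800, adjusted P value 1.36e-09) in SM, with r of 0.43 (permutation p = 2e-05, rho 0.45, permutation p = 3e-05) and 0.66 (permutation p = 1e-05, rho 0.64, permutation p = 1e-05). The other mitochondrial members went with HSPD1 only in part. Both PPIF probes were positive in SM, with slopes of 0.37 (adjusted P value 0.0377) and 0.36 (adjusted P value 0.0394), and DNAJC19 was called in neither muscle. In SM the list also held HSPB1, HSPB3 and HSPB8, 8 J-protein genes, HSPA5, the probe listed as HSPA4 and PPIG, while FKBP15 and HSPG2 were negative, beside 19.8% of all probes. No member's slope was called as different between the muscles, although 11 (27.5%) had an unadjusted p below 0.05 in the interaction test, beside 16.4% of all probes, and the lowest adjusted P value was 0.0616; over all probes 216 were called. With the C-rich index as a covariate, 16 members instead of 22 were called in SM, beside 24% instead of 32.8% of all probes. In LM 0 members were negative, beside 1.41%.

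Of all members tested with the 6 references, the lowest adjusted P value was that of HSPB8 with HSPB1, both small heat shock proteins. HSPB8 rose with HSPB1 with a slope of 0.54 (SE 0.0377, adjusted P value 8.54e-19) in LM and 0.54 (SE 0.0533, adjusted P value 5.68e-13) in SM. Their levels correlated with Pearson's r of 0.83 (permutation p = 1e-05) and Spearman's rho of 0.85 (permutation p = 1e-05) over 86 arrays of LM, and r was 0.82 without the 2 outermost arrays and 0.87 within slides. In SM, r was 0.77 (permutation p = 1e-05), rho 0.74 (permutation p = 1e-05), and r 0.73 without the 2 outermost arrays and 0.77 within slides. On each slide with 5 or more arrays r was positive, from 0.78 to 0.97 in LM and from 0.51 to 0.99 in SM. DNAJA4 came next with slopes of 0.65 (SE 0.0813, adjusted P value 5.61e-09) and 0.66 (SE 0.0989, adjusted P value 9.03e-07) and r of 0.72 and 0.65 (permutation p = 1e-05 in both muscles, rho 0.74 and 0.61 with permutation p = 1e-05). HSPB7 and HSPB3 were also positive in both muscles, whereas HSPB6 was called in neither. In all, 17 of 40 member probes were positive in LM and 13 in SM, beside 8.23% and 4.51% of all probes, and PPIG and HSPG2 were negative in LM, beside 5.6%, and 0 in SM, beside 2.49%. HSP90AA1, HSP90B1, HSPA5, DNAJB9 and the probe listed as HSPA4 were among the positive members of both muscles. No member's slope was called as different between the muscles (lowest adjusted P value 0.526 in the interaction test). An unadjusted p below 0.05 was found for 2 (5.0%), beside 6.91% of all probes.

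**Figure D5:**
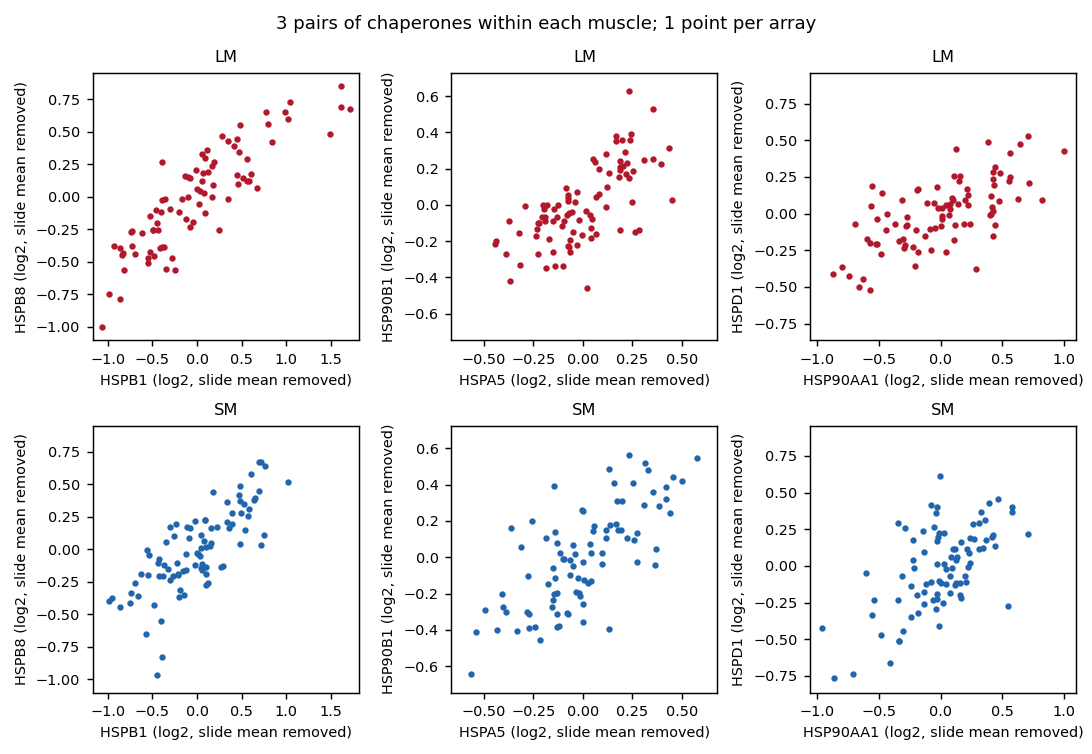
Levels of HSPB8 against HSPB1, HSP90B1 against HSPA5 and HSPD1 against HSP90AA1 (log2, mean of the slide removed), 1 point per array, LM above and SM below. Each pair rises together in both muscles, with r within slides of 0.87 and 0.77, 0.68 and 0.72, and 0.63 and 0.64.

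The probe listed as HSPA4, with its wide spread, was positively associated with 9 of 40 member probes in LM and 7 in SM, beside 2.48% and 2.15% of all probes, and negatively with 0 in either muscle, beside 0.801% and 0.983%. DNAJA4, DNAJB9, HSP90AA1, HSPA5 and HSPB8 were called in both. No member's slope was called as different between the muscles (lowest adjusted P value 0.952 in the interaction test). An unadjusted p below 0.05 was found for 2 (5.0%), beside 4.9% of all probes. DNAJB9 had slopes of 0.15 (SE 0.0335, adjusted P value 0.00593) in LM and 0.13 (SE 0.0275, adjusted P value 0.00228) in SM, and DNAJA4 of 0.18 (SE 0.0412, adjusted P value 0.00777) and 0.14 (SE 0.0355, adjusted P value 0.00949). With normexp background correction of the signals, 5 members were called in LM and 0 in SM, beside 2.11% and 1.02% of all probes.

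Few members went with FKBP5. In LM, 2 of 40 member probes were positively associated, beside 3.47% of all probes, and both measure DNAJB6, with slopes of 0.33 (SE 0.0831, adjusted P value 0.00841) and 0.34 (SE 0.0871, adjusted P value 0.00996). These calls were lost when spots that failed the quality criteria were kept (adjusted P values 0.147 and 0.108). DNAJA4 was negatively associated at -0.54 (SE 0.162, adjusted P value 0.0321), beside 2.33% of all probes. In SM, 0 members were called by limma and 4 had an unadjusted p below 0.05 (beside 18.2% of all probes), beside 1.07% of all probes called as positive and 2.11% as negative; HSPG2 was closest with -0.21 (SE 0.0668, adjusted P value 0.0545). FKBP4 and HSP90AA1, its partners in steroid receptor complexes, were called with FKBP5 in neither muscle. The spots of FKBP5 were missing on 7 LM and 3 SM arrays. No member's slope was called as different between the muscles (lowest adjusted P value 0.525). In this interaction test 4 members (10.0%) had an unadjusted p below 0.05, beside 6.77% of all probes.

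Other genes of the pathways were taken from lists of HSP90 and HSP70 partners and of stress genes of the endoplasmic reticulum, as far as the study's lists named a probe. Of 15 partners, 5 genes (6 probes) were named. STIP1 (HOP), which bridges HSP70 and HSP90, rose with HSP90AA1 with a slope of 0.73 (SE 0.0544, adjusted P value 1.09e-17) in LM and 0.63 (SE 0.0734, adjusted P value 1.52e-09) in SM. SUGT1, another HSP90 co-chaperone, followed with 0.23 (SE 0.0468, adjusted P value 1.72e-04) and 0.58 (SE 0.106, adjusted P value 3.02e-04), and with HSPD1 in SM with 0.86 (SE 0.0758, adjusted P value 3.36e-14). UNC45B, the myosin chaperone of striated muscle, was called with HSP90AA1 in LM at 0.24 (SE 0.0602, adjusted P value 0.00282). Neither probe of SMYD1, a methyltransferase that binds HSP90 in muscle, nor that of HSF1 was called with HSP90AA1. HSF1 was negative with HSPA5 at -1.29 (SE 0.358, adjusted P value 0.00495) in LM, a slope that was 0.26 with the C-rich covariate. In all, 3 of 6 partner probes were positive with HSP90AA1 in LM and 2 in SM, and 0 negative, beside the 11.5% and 2.49% of all probes that were positive.

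Of 19 genes of the endoplasmic reticulum, 8 (10 probes) were named. With HSPA5, 5 probes were positive and 1 negative in LM, and 4 positive and 0 negative in SM, beside 15.9% positive and 12.8% negative of all probes in LM and 5.93% and 8.82% in SM. Such calls were not particular to HSPA5. With HSPB1, 4 of the 10 probes were positive in LM and 4 in SM, beside 8.23% and 4.51% of all probes. With HSP90AA1, 4 were positive in LM and 1 in SM, beside 11.5% and 2.49%. The genes named next are those called with HSPA5. HYOU1, an HSP70-like exchange factor of HSPA5, was the gene called in both, with slopes of 0.37 (SE 0.0748, adjusted P value 1.69e-04) in LM and 0.35 (SE 0.0708, adjusted P value 4.59e-04) in SM. CALR (calreticulin), both probes of the collagen chaperone SERPINH1 (HSP47) and the stress sensor ATF6 were positive in LM, and both probes of PDIA3 and that of PDIA4, protein disulphide isomerases, in SM. HERPUD1, of the degradation pathway, was negative in LM at -0.56 (SE 0.198, adjusted P value 0.0247) and was not called with the C-rich covariate. SERPINH1 was negative with FKBP5 by both probes in both muscles, with slopes of -0.49 (SE 0.0865, adjusted P value 1.92e-04) and -0.42 (SE 0.0947, adjusted P value 0.00268) in LM and -0.37 (SE 0.0812, adjusted P value 0.00488) and -0.33 (SE 0.0914, adjusted P value 0.0293) in SM. Of 6 mitochondrial genes only TIMM44, of the import motor, was named, and both of its probes were positive with HSPA5 in LM. Of 10 glucocorticoid response genes, ZBTB16 and PDK4 were named and neither was called with FKBP5, ZBTB16 having slopes of 0.20 (SE 0.0931, adjusted P value 0.224) in LM and 0.39 (SE 0.132, adjusted P value 0.0837) in SM.

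Markers of other cell types moved with some of these levels. Of 12 skeletal muscle fibre genes, 6 were named (12 probes), 4 with the higher mean in LM (TTN, MYL1, NEB and CKM) and 2 in SM (ACTA1 and MYH1), and the brighter probe of ACTA1 had levels of 9.46 in LM and 10.16 in SM. The summed level of the fibre list, the mean of the probes each centred on its own mean, ranged from -0.20 to 0.53 in LM, with a median of 0.29, and from -0.73 to 0.32 in SM, with a median of -0.30. Both ACTA1 probes were negative with HSPD1 in SM, beside 19.8% of all probes. NEB was positive with HSPA5 in LM by 1 of 3 probes, beside 15.9%, and MYL1 was negative with FKBP5 in LM, beside 2.33%. The 3 named adipocyte genes of 5, ADIPOQ, PLIN1 and CIDEC, were all negative with HSP90AA1 in SM, beside 2.08% of all probes. In SM 2 of them were negative with HSPD1, beside 19.8%, and ADIPOQ and CIDEC with FKBP5 in LM, beside 2.33%. ADIPOQ was also negative with HSPB1 in SM, beside 2.49% of all probes. The summed adipocyte level ranged from -2.69 to 2.59 in LM and from -1.54 to 2.83 in SM. Of 4 smooth muscle probes 3, both COL1A2 probes of the fibroblast list and VWF of the endothelium were negative with HSPD1 in SM. The share of all probes negative with HSPD1 in SM was 19.8%. VWF was also negative with HSP90AA1 in LM, beside 7.52% of all probes, and 1 COL1A2 probe with FKBP5 in SM, beside 2.11%. The summed smooth muscle level ranged from -1.23 to 0.26 in LM and from -0.11 to 1.3 in SM, the fibroblast level from -1.51 to 1.26 and from -1.75 to 1.55, and the endothelial level from -0.83 to 0.10 and from -0.32 to 0.86. All named adipocyte, smooth muscle, fibroblast and endothelial genes had the higher mean in SM. Over all probes, 47.7% were called higher in SM. The markers were named through the study's lists of genes that differ between these muscles, so nothing is read from their differences. Of 4 macrophage genes, CD68 and SPI1 were named, CD68 with the higher mean in LM and SPI1 in SM. Both were negative with HSPA5 in LM, beside 12.8% of all probes, and SPI1 in SM, beside 8.82%. With the C-rich covariate neither was called, and the slope of SPI1 in LM was then -0.02. The summed macrophage level ranged from -2.04 to 1.03 in LM and from -0.83 to 2.80 in SM. Of 3 blood genes 0 were named. Each named marker passed the filter on dim spots. The part of these cells, and of the sex, family and slaughter batch of the pigs, which the labels do not give, in the chaperone results was not tested.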

How the data were processed

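Gene expression was measured with single-colour Agilent arrays of 15198 probes in LM and SM samples labelled as coming from 90 pigs, 180 arrays in all. The deposited scanner files hold the processed signal intensity of each spot on a linear scale, made by the authors with Feature Extraction (9.5.1.1 and 9.5.3.1), background-subtracted and not normalized between arrays. A deposited value table on the natural log (ln) scale, which the authors centred per array, served as an alternative. Genes were named through the study's 2 lists of probes, the second of which lacked 400 rows, so that members named only there were not analysed here.

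Intensities were put on the log2 scale. A spot was treated as missing if it was saturated, non-uniform or dim against its background, and a probe was dropped if over 50% of its spots in LM or in SM were missing (11000 passed). Each array was then centred on its median, and values lying over 3 SD from a probe's mean were discarded. This kept 10987 probes, all 41 members among them. The number of arrays limits the precision. Probes were fitted with lmFit and eBayes of limma 3.58.1 (R 4.3.3, statmod 1.5.0), with Benjamini and Hochberg adjustment over all probes kept: between the muscles without further terms, and within each muscle on the level of a reference chaperone with the slide as a term, leaving out the probes of the reference. Muscle differences of slopes were tested by the interaction term. The study's model also held sex, carcass weight and batches of slaughter and hybridization, which the labels do not give, so these terms were left out here. Correlations were given with 100000 permutations (Python 3.11.15, NumPy 2.4.6, pandas 2.3.3, SciPy 1.17.1, matplotlib 3.10.9); 24 correlations of references with technical measures, 30 of chosen pairs and 8 of probes of 1 gene were computed. The pairs shown were the members with the lowest adjusted P values in both muscles, chosen after the values were seen. The pairs of FKBP5 with the DNAJB6 probes were added by name and did not follow this rule. These fits were tested on simulated data. Members, lists and references were chosen with earlier results of these data known. Every member is named, with full values for references, genes with 2 probes and the highest correlations between muscles. No promoter or protein sequence was analysed here.

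Whether the pig number pairs the arrays was checked with 2 probes of separate states: the number was shared with the state in 83 of 90 pairs at the first and 43 of 90 at the second, so the pig was not used as a block in the comparison of the muscles. Alternatives were other centring, quantile normalization, normexp background correction (offset 50), keeping failing spots or outlying values, no filter on dim probes (10 or more values per muscle), the C-rich index as a covariate, the deposited table, no slide term, slide as a random block and the pig as a block.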

Additional observations from a re-analysis of the deposited data

How the results depend on the processing

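Of the counts of called probes or members, 117 alternatives stayed within 1.5 times the value reported and 17 did not. The comparison of the muscles called 9169 probes, 6027 (of 6903) with the deposited table, 8629 with the slide as a random block and 9159 with the pig as a replicate block, which changed the direction of no member. The share of all probes called in the same fit is given in brackets. With HSP90AA1 in SM, 10 members (4.56%) became 17 without the slide term (19.2%) and 21 with normexp (34.2%). With HSPA5 in SM, 14 (14.8%) became 7 with the C-rich covariate (4.61%). With FKBP5 in LM, 3 members (5.8%) became 9 without the slide term (14.6%) and 6 with centring on the 75th percentile (6.23%). With FKBP5 in SM, 0 (3.19%) became 7 with normexp (14.4%), 2 each without the slide term (11.3%), with failing spots kept (4.21%) and with the deposited table (6.81%), and 1 each with the C-rich covariate (5.51%), quantile normalization (5.38%), outlying values kept (5.46%) and no filter (2.88%). With the probe listed as HSPA4, normexp gave 5 members in LM (2.11%) instead of 9 (3.29%) and 0 in SM (1.02%) instead of 7 (3.13%), and with HSPB1 in SM 25 (33.2%) instead of 13 (7.01%). The difference between the muscles turned with normexp for HSPA2 (-0.0643), DNAJB4 (-0.0838) and DNAJB5 (-0.10), and with the C-rich covariate for DNAJB4 (-0.00062), CCT6A (-0.0367) and HSPB3 (-0.0709). With normexp it fell to 0.40 for DNAJB14, 0.35 for DNAJC9 and 0.61 for PPIG. The slope of the second DNAJB6 probe with FKBP5 in SM, 0.01, was -0.0714 with normexp and -0.0013 with failing spots kept. The cause of these shifts was not tested. 0 members were correlated between the muscles under each alternative tried. Probes near the background, such as DNAJB4 and DNAJB5, limit what can be read from their means.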
